A study of Mus musculus with 25 samples.

Results

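The genes described here are 10 receptors and ligands through which macrophages bind modified lipoproteins, debris and dying cells. They are the scavenger receptors Msr1, Marco, Stab1, Cd163, Cd36 and Scarb1, the receptor tyrosine kinases Mertk and Axl with their ligand Gas6, and the lipid-sensing receptor Trem2. They were chosen by gene symbol from 24411 symbols, and all 10 were found in the count files. RNA-seq was performed on 25 libraries in 9 groups. Of these, 21 libraries in 7 groups of 3 came from bone marrow-derived macrophages (BMDMs) of C57BL/6 mice, grown with 25 ng/ml M-CSF for 4 days. One group was control BMDMs cultured for 4 h, and 2 groups received 10 ng/ml IL-4 or IL-13 for 12 h. The other 4 groups were given 100 U/ml of IFN-γ and 100 ng/ml of LPS and are labelled 1, 4, 12 or 24 h (IFN-LPS). The paper calls these cells IFN-γ-primed, but does not state how long IFN-γ was given before LPS. The hours used here are those of the labels, and the full time with IFN-γ is not known. The remaining 4 libraries, in 2 groups of 2, came from RAW264.7, a transformed mouse macrophage cell line, cultured for 4 h without or with LPS (100 ng/ml). Every BMDM comparison used the same 3 control libraries, whose labelled time matched only the 4 h group, apart from any priming before LPS. The methods of the study call the BMDM libraries of a group biological replicates from independent RNA, whereas neither they nor the labels say whether these came from separate mice or cultures, so p-values measure only the spread between these libraries, which may be partly technical. BMDMs given LPS without IFN-γ were not analysed here.

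Scavenger receptors are cell-surface proteins of unrelated structure that share an affinity for polyanionic and oxidised ligands. Class A receptors (Msr1, Marco) are collagen-like trimers that bind modified LDL, bacteria and particles, class B receptors (Cd36, Scarb1) carry fatty acids and lipoprotein lipid across the membrane, stabilin-1 (Stab1) is a large endocytic receptor that also binds phosphatidylserine, and Cd163 takes up haptoglobin-haemoglobin. Efferocytosis is the engulfment of apoptotic cells. Mertk and Axl bind phosphatidylserine on a dying cell through a bridging ligand, of which Gas6 serves both, and Trem2 binds lipids and signals through the adaptor Tyrobp.

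Counts on genes ran from 2378639 to 3357300 per library, and 1502618 to 2532496 remained after the ribosomal precursor Rn45s was left out. Levels are in CPM, which are sense-strand counts scaled to a common total of these remaining counts, with TMM factors over all libraries. All 8 macrophage markers had counts in every group, summing to 18254 to 32803 CPM per BMDM library and 7042 to 7921 CPM per RAW264.7 library. T cell and erythroid markers were at 0 in every library. Of the stromal markers, 5 of 5 had counts in BMDMs, where their sum was 52.5 to 109.3 CPM per library, and all were at 0 in RAW264.7. The endothelial sum was 12.9 to 56.1 CPM in BMDMs, almost all of it Kdr, with Tek and Cldn5 at 0, and the neutrophil sum was 12.3 to 51.8 CPM. Antisense counts made up 0.0386 to 0.122% of Rn45s counts in the control, 1, 4 and 12 h libraries, but 0.00603 to 0.0214% in the 24 h, IL-4 and IL-13 libraries. Whatever set this share cannot be told apart from those 3 treatments. A gene counted as changed at a Benjamini-Hochberg adjusted p (FDR) of at most 0.01 by edgeR's quasi-likelihood test over all genes tested, and errors of log2 fold changes are standard errors (SE). In bulk RNA, fewer cells with a transcript and less of it per cell cannot be told apart.

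Promoter sequences are shown for the members whose mean levels ranged most across the BMDM groups, apart from Msr1, which had no entry in the table. The windows are the 250 bases before the RefSeq start on GRCm38.p6 (mm10), written 5′ to 3′ on the strand of the gene. Capitals mark matches, on either strand, to GAGGAAG (PU.1-like) or TGANTCA (AP-1-like). Marco lies at chr1:120505025-120505274 (minus strand), Axl at chr7:25788734-25788983 (minus), Trem2 at chr17:48346151-48346400 (plus), Mertk at chr2:128698665-128698914 (plus), Cd36 at chr5:17835897-17836146 (minus) and Gas6 at chr8:13494536-13494785 (minus).
Marco: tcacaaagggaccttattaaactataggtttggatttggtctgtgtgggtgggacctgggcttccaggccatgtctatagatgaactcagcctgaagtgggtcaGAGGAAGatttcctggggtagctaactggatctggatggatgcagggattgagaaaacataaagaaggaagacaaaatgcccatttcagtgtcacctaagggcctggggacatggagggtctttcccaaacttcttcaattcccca
Axl: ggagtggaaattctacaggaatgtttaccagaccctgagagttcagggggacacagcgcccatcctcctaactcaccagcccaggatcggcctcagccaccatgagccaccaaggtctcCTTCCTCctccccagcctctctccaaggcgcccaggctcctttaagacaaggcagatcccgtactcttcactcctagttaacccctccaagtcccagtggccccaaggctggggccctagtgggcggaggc
Trem2: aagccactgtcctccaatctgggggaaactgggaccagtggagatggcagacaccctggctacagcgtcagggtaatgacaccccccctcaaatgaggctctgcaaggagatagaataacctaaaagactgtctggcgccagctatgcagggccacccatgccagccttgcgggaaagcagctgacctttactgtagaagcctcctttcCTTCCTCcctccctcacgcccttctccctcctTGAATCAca
Mertk: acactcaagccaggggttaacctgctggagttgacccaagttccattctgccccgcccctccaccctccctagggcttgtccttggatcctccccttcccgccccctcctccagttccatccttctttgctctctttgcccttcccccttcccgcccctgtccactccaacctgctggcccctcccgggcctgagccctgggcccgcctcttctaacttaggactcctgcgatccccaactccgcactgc
Cd36: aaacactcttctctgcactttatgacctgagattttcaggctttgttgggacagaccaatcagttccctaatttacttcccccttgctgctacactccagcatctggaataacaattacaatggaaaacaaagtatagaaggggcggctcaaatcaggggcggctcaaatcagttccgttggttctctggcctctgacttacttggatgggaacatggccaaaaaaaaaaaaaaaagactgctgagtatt
Gas6: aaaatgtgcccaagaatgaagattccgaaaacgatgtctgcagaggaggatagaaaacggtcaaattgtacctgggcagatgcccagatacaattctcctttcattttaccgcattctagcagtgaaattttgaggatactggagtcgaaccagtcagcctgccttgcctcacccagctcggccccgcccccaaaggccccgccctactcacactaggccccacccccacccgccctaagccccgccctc
The PU.1-like match began at base -146 in Marco, -131 in Axl and -41 in Trem2, and Trem2 also had an AP-1-like match at -9. Of 32851 promoters of the same table, searched from 250 bases before to 50 after the start, 13.6% held the PU.1-like and 7.81% the AP-1-like letters. Neither Mertk nor Gas6 held any of the 7 motifs searched, which also included GAAANNGAA (IRF-like, in 8.56% of promoters), TTCNNNGAA (GAS-like, 8.30%), CACGTG (E-box, 7.15%) and TGACGTCA (CRE, 1.79%). The last was TTC and GAA spaced 4 bases apart (STAT6-like, 6.95% of promoters), and Cd36, with none of the 7 in the window before its start, held one at base 21 after it. The capitals mark it in the stretch from base 11 to base 40, chr5:17835857-17835886 (minus strand).
Cd36 after the start: gtgatgggtcTTCACCAGAAatagaccctt
None of the 7 motifs was found in Stab1 or Cd163. Of the 10 members, 8 had a promoter in the table, and Msr1 and Scarb1 did not. A match describes the letters of a window and is not a binding site.

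Class A scavenger receptors rose in IFN-LPS-stimulated BMDMs. Msr1 (chr8:39581685-39642673, minus strand), the macrophage receptor for acetylated and oxidised LDL, was at 74.3, 69.1 and 74.5 CPM in the control libraries. It was at 144, 153 and 137 CPM at 1 h, 144, 188 and 251 CPM at 4 h, 296, 232 and 312 CPM at 12 h, and 236, 215 and 203 CPM at 24 h. Every stimulated library lay above every control library. The log2 fold change against control was 0.96 ± 0.14 (SE) at 1 h (edgeR, adjusted p = 1.05e-06), 1.37 ± 0.14 at 4 h (adjusted p = 2.35e-10), 1.90 ± 0.14 at 12 h (adjusted p = 1.33e-14) and 1.58 ± 0.14 at 24 h (adjusted p = 2.24e-12). Neighbouring time points overlapped in their CPM ranges. The step from 4 to 12 h passed the test (0.54 ± 0.13, adjusted p = 0.000719) but lost its call without replicate 1 of the 4 h group, the lowest of the 3 (0.36, adjusted p = 0.0157). The step from 12 to 24 h was -0.32 ± 0.12 (adjusted p = 0.0509) and did not pass.

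Marco (chr1:120474538-120505024, minus strand), which binds bacteria and unopsonised particles, had 0 counts in every control library. It had 2, 1 and 1 counts at 1 h, 6, 10 and 8 counts at 4 h (6.56 ± 1.23 CPM, SD, n = 3), 275, 242 and 426 counts at 12 h (189 ± 53.6 CPM) and 1314, 1353 and 1782 counts at 24 h (690 ± 55.9 CPM). Each time point lay above the one before it in every library. The mean was at least 12.2-fold higher than control at 4 h, at least 351-fold higher at 12 h and at least 1279-fold higher at 24 h, with the control set at a floor of 3 counts over its 3 libraries together. The change passed the test at 4 h (adjusted p = 1.42e-06), 12 h (adjusted p = 2.91e-24) and 24 h (adjusted p = 2.42e-29), but not at 1 h (adjusted p = 0.0755). Marco was the only member still rising between 12 and 24 h by more than a log2 fold change of 1, at 1.91 ± 0.12 (adjusted p = 1.19e-15). With 4.83 ± 0.22 from 4 to 12 h (adjusted p = 4.55e-20), most of its induction came after the 4 h sampling. It had 0 counts with IL-4, 0, 2 and 0 counts with IL-13, and 0 counts in all 4 RAW264.7 libraries.

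Stab1 (chr14:31139013-31168641, minus strand) fell and then partly recovered. It was at 408, 408 and 402 CPM in control libraries, then at 231, 194 and 245 CPM at 1 h and 117, 86.4 and 124 CPM at 4 h. It came back to 192, 182 and 246 CPM at 12 h and to 296, 257 and 282 CPM at 24 h. No stimulated library reached the control range. Against control, the log2 fold change was -0.89 ± 0.11 at 1 h (edgeR, adjusted p = 1.95e-09), -1.95 ± 0.12 at 4 h (adjusted p = 2.96e-19), -1.02 ± 0.11 at 12 h (adjusted p = 2.70e-11) and -0.55 ± 0.10 at 24 h (adjusted p = 1.45e-05). The upward steps from 4 to 12 h (0.94 ± 0.12, adjusted p = 1.92e-08) and from 12 to 24 h (0.47 ± 0.11, adjusted p = 0.000955) also passed, the latter not without replicate 1 (0.41, adjusted p = 0.0146) or replicate 2 (0.39, adjusted p = 0.0181) of the 12 h group. Counts on the opposite strand of Stab1 were 4.57% of both strands in control and 16.4% at 12 h. At its 3′ end Stab1 shares 112 exonic bases with Nt5dc2, which lies on the plus strand (chr14:31131053-31139124), and Nt5dc2 itself was at 53.7 ± 3.2 CPM in control and 39.4 ± 8.2 CPM at 12 h (SD, n = 3).

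**Figure D1:**
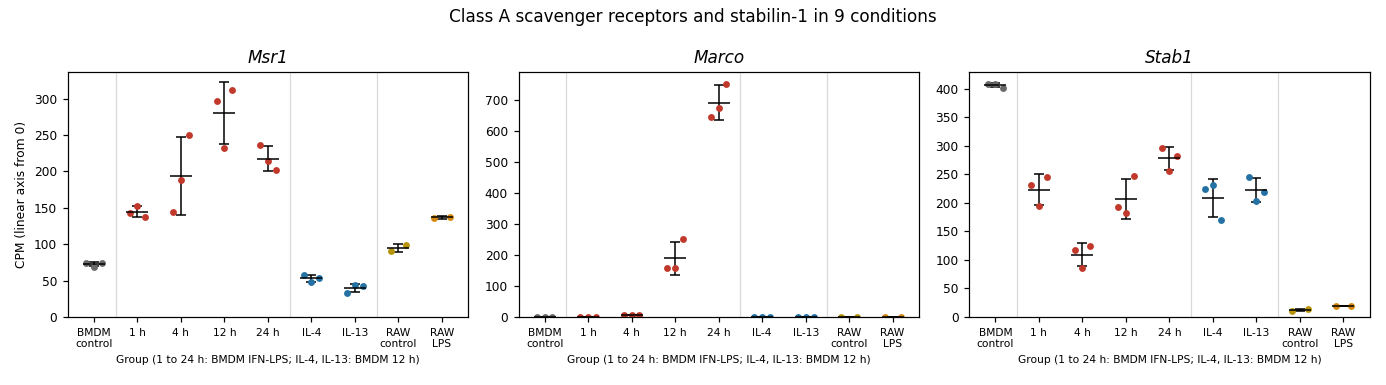
CPM of Msr1, Marco and Stab1 in each library (points), with the mean (horizontal line) and SD (bars) of each of the 9 groups, on linear axes from 0. Msr1 is above control at every IFN-LPS time point, and Stab1 has its BMDM minimum at 4 h (109 CPM). Marco is at 6.56 CPM at 4 h, 189 CPM at 12 h and 690 CPM at 24 h.

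Cd163 (chr6:124304656-124330527, plus strand), a marker of glucocorticoid- and IL-10-treated macrophages, had 0 counts on its strand in all 25 libraries. A count of 0 allows a level of up to 0.467 to 0.827 CPM per group (3 counts over the group, counting error only). It could not be tested. On the opposite strand it had 1 to 7 counts per control library, 4 to 6 with IL-4, 1 to 3 with IL-13 and 0 or 1 in each IFN-LPS library, with none in RAW264.7.

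Class B receptors fell with IFN-LPS, each on its own schedule. Cd36 (chr5:17781690-17888801, minus strand), the fatty acid translocase and oxidised LDL receptor, was at 1173, 1185 and 1089 CPM in control libraries. It was at 905, 923 and 774 CPM at 1 h, 457, 648 and 558 CPM at 4 h, 337, 360 and 475 CPM at 12 h, and 274, 314 and 389 CPM at 24 h. All stimulated libraries lay below all control libraries. The log2 fold change was -0.44 ± 0.12 at 1 h (adjusted p = 0.00611), -1.10 ± 0.13 at 4 h (adjusted p = 2.62e-08), -1.60 ± 0.13 at 12 h (adjusted p = 2.86e-11) and -1.82 ± 0.13 at 24 h (adjusted p = 2.26e-12). The 1 h call was lost when Rn45s was kept (-0.43, adjusted p = 0.0103), without any single control or 1 h library, and without replicate 3 of the 4 h or replicate 2 of the 24 h group, where it ranged from -0.48 to -0.34. The step between 4 and 12 h (-0.50 ± 0.13, adjusted p = 0.00257) was lost without replicate 2 or 3 of the 4 h group or replicate 1 or 2 of the 12 h group (-0.38, -0.50, -0.41 and -0.45) and with scaling by library size alone (-0.28).

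Scarb1 (chr5:125277087-125341094, minus strand), the HDL receptor SR-BI, did not fall at first. It was at 142, 152 and 143 CPM in control and 159, 175 and 173 CPM at 1 h, a log2 fold change of 0.19 ± 0.12 (adjusted p = 0.220) although the ranges did not overlap. It then fell to 112, 104 and 85.5 CPM at 4 h (-0.59 ± 0.13, adjusted p = 0.000101), 49.2, 63.2 and 86.1 CPM at 12 h (-1.19 ± 0.13, adjusted p = 6.30e-11) and 64.2, 56.8 and 61.2 CPM at 24 h (-1.26 ± 0.13, adjusted p = 4.81e-12). The last 2 time points overlapped, and their difference did not pass the test (24 h against 12 h, -0.08 ± 0.14, adjusted p = 0.752).

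Trem2 (chr17:48346401-48354147, plus strand) fell late. It was at 1166, 1036 and 1068 CPM in control, 1023, 1113 and 1088 CPM at 1 h and 1036, 980 and 856 CPM at 4 h, with overlapping ranges and no call at 1 h (-0.05 ± 0.09, adjusted p = 0.687) or 4 h (-0.24 ± 0.09, adjusted p = 0.0143). At 12 h it was at 309, 351 and 322 CPM and at 24 h at 191, 176 and 194 CPM. The log2 fold change was -1.78 ± 0.09 at 12 h (adjusted p = 1.96e-22) and -2.55 ± 0.09 at 24 h (adjusted p = 5.20e-28). Each of the last 2 steps passed, with -1.54 ± 0.09 from 4 to 12 h (adjusted p = 3.49e-19) and -0.77 ± 0.10 from 12 to 24 h (adjusted p = 1.45e-08). Trem2 and Marco thus moved in opposite directions over the same interval.

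**Figure D2:**
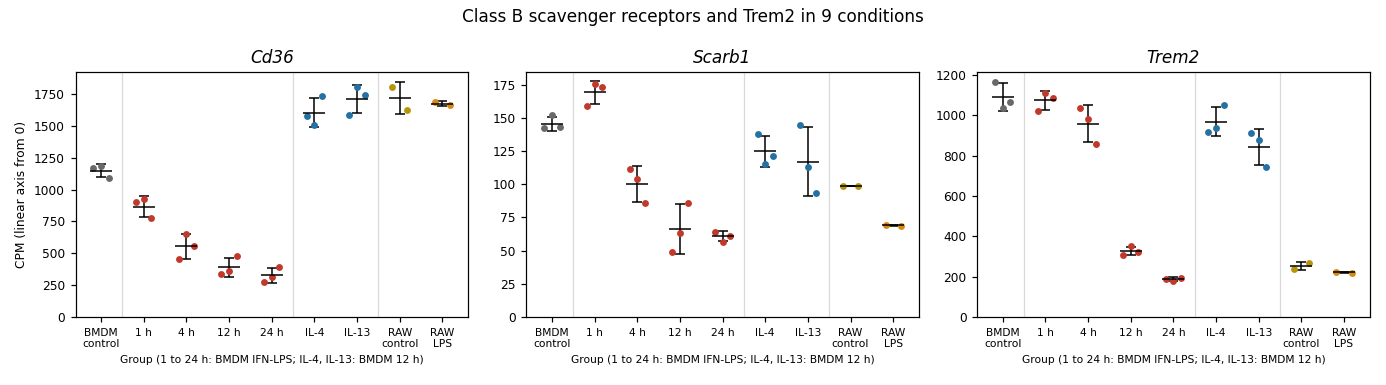
CPM of Cd36, Scarb1 and Trem2 in each library (points), with the mean (horizontal line) and SD (bars) of each group, on linear axes from 0. Cd36 declines at each IFN-LPS time point to 326 CPM at 24 h and is above control with IL-4 and IL-13, whereas Trem2 stays near 1000 CPM to 4 h and is at 187 CPM at 24 h.

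The TAM receptors split. Axl (chr7:25757273-25788705, minus strand) was raised from the 1 h time point on, and Mertk (chr2:128698956-128802894, plus strand) rose only transiently. Gas6 (chr8:13465374-13494490, minus strand), the vitamin K-dependent protein that activates both receptors, was lower at all 4 time points. Axl was at 130, 143 and 167 CPM in control, 371, 366 and 402 CPM at 1 h, 739, 648 and 646 CPM at 4 h, 683, 696 and 634 CPM at 12 h, and 384, 390 and 351 CPM at 24 h. The stimulated libraries were all above the control libraries. The log2 fold change was 1.34 ± 0.10 at 1 h (adjusted p = 6.45e-16), 2.15 ± 0.10 at 4 h (adjusted p = 4.67e-24), 2.15 ± 0.10 at 12 h (adjusted p = 3.84e-24) and 1.35 ± 0.10 at 24 h (adjusted p = 1.80e-16). The fall from 12 to 24 h was -0.80 ± 0.09 (adjusted p = 1.99e-09).

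Mertk was at 77.5, 81.1 and 85.2 CPM in control and 66.7, 58.7 and 61.8 CPM at 1 h (-0.41 ± 0.13, edgeR, adjusted p = 0.0116, not called). At 4 h it was at 184, 142 and 155 CPM, above every other BMDM library. The log2 fold change was 0.92 ± 0.12 against control (edgeR, adjusted p = 7.96e-09) and 1.33 ± 0.13 against 1 h (adjusted p = 1.48e-12). The size of the change against control depended on the setting, from 0.39 to 0.97, although the call was kept in all of them. TMM factors were 0.717 to 0.751 at 4 h and 1.09 to 1.11 in control. By 12 h Mertk had returned to 64.8, 70.4 and 52.5 CPM and at 24 h it was at 26.9, 25.4 and 28.3 CPM, the lowest of the BMDM groups. The 24 h change was -1.60 ± 0.15 (adjusted p = 2.17e-13). The 12 h change of -0.43 ± 0.13 (adjusted p = 0.00541) lost its call with DESeq2 (-0.41), with no filter on low counts (-0.39), in 1 fit of all 25 libraries (-0.38), and without replicate 2 or 3 of the control or replicate 1 or 3 of the 12 h group (-0.42, -0.38, -0.45 and -0.28).

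Gas6 was at 351, 349 and 341 CPM in control, 110, 103 and 115 CPM at 1 h, and 82.5, 70.0 and 81.4 CPM at 4 h. It was at 18.5, 24.1 and 19.5 CPM at 12 h and 21.5, 16.9 and 31.7 CPM at 24 h. The groups at 12 and 24 h overlapped (24 h against 12 h, 0.24 ± 0.20, adjusted p = 0.418), and all earlier groups were apart. Against control the log2 fold change was -1.69 ± 0.11 at 1 h (adjusted p = 5.73e-18), -2.21 ± 0.12 at 4 h (adjusted p = 3.28e-21), -4.12 ± 0.14 at 12 h (adjusted p = 4.08e-29) and -3.87 ± 0.13 at 24 h (adjusted p = 3.67e-29), so that the mean at 12 h was 16.8-fold below control. The summed stromal markers, whose cells can also make Gas6, were at 72.4 to 107.8 CPM in control and 58.4 to 72.3 CPM at 12 h, with all 5 markers above 0 in both groups. Their part in the change was not tested.

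**Figure D3:**
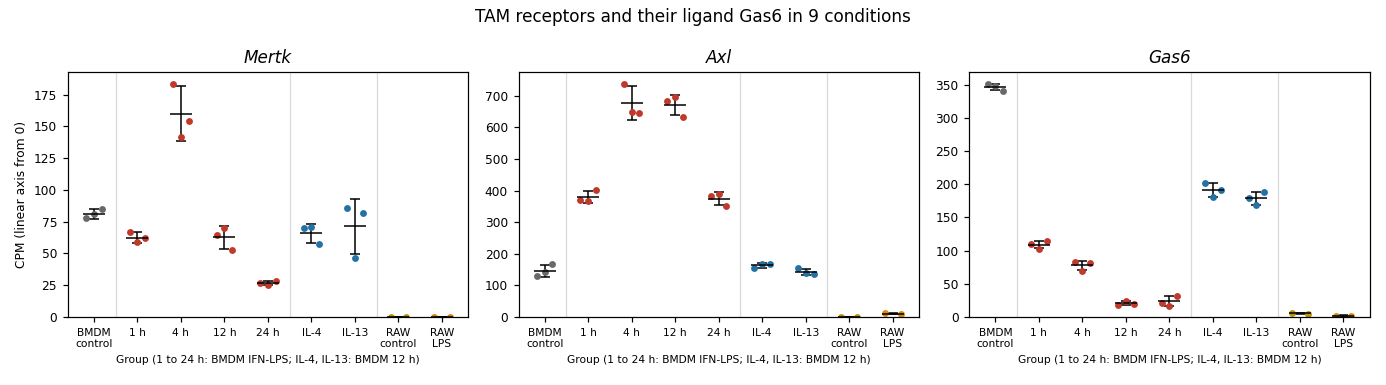
CPM of Mertk, Axl and Gas6 in each library (points), with the mean (horizontal line) and SD (bars) of each group, on linear axes from 0. Mertk peaks at 4 h (160 CPM), Axl is high at 4 and 12 h (678 and 671 CPM), and Gas6 falls from 347 CPM in control to 20.7 CPM at 12 h.

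The balance of the TAM receptors was read within each library as Axl over Mertk, each in CPM per kb of its principal transcript (4.265 kb for Axl and 4.302 kb for Mertk). The ratio was 1.69 to 1.98 in control libraries. After 1 h it lay between 5.61 and 6.56, after 4 h between 4.06 and 4.62, after 12 h between 9.97 and 12.2, and after 24 h between 12.5 and 15.5. No 2 of these 5 groups overlapped. With IL-4 it was 2.24 to 2.96, and with IL-13 it was 1.70 to 2.99, which overlapped the control range. At 4 h, where both receptors were raised, the ratio was below that at 1 h.

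**Figure D4:**
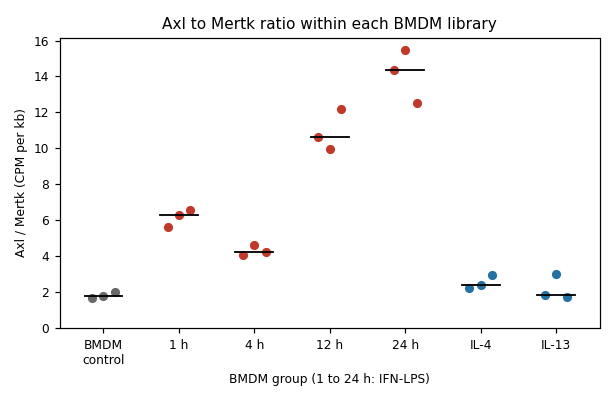
Ratio of Axl to Mertk, each in CPM per kb, in each of the 21 BMDM libraries (points), with the median of each group (line), on a linear axis from 0. The ratio has a median of 1.77 in control and 14.4 at 24 h of IFN-LPS, and stays below 3 in all 6 IL-4 and IL-13 libraries.

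Of the 10 members, 9 passed the filter on low counts in the time course, Marco only through the IFN-LPS groups where it was high. At 1 h, 2 rose (14.7% of 9568 genes tested rose) and 3 fell (11.3% fell). At 4 h the members split evenly, with 4 up (26.0% of genes) and 4 down (25.6%). At 12 h the members higher than control numbered 3 (23.9% of genes) and those lower numbered 6 (23.4%). The same numbers held for the 24 h group, beside 23.9% and 21.3% of all genes. In the step that ended with 4 h, 3 members rose and 4 fell (19.8% and 19.1% of genes). In the next step 3 rose and 5 fell (16.7% and 19.2%), and in the last step 2 rose and 3 fell (5.31% and 8.90%). The median log2 fold change of the 9 members was -0.24 at 4 h and -1.27 at 24 h, beside -0.07 and 0.02 over all genes. With scaling by library size alone, the median over all genes at 4 h was -0.61 and 1487 genes rose and 4641 fell, instead of 2486 and 2446. No called member changed direction against control under that scaling. Past the fold cutoff used in the study for this treatment (log2 of 1.5), 1 member remained at 1 h, 4 at 4 h and 6 each at 12 and 24 h. Of all 9568 genes, 482 rose and 199 fell past this cutoff at 1 h, and 1086 rose and 1094 fell at 4 h. The numbers were 849 and 806 at 12 h, and 759 and 663 at 24 h.

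**Figure D5:**
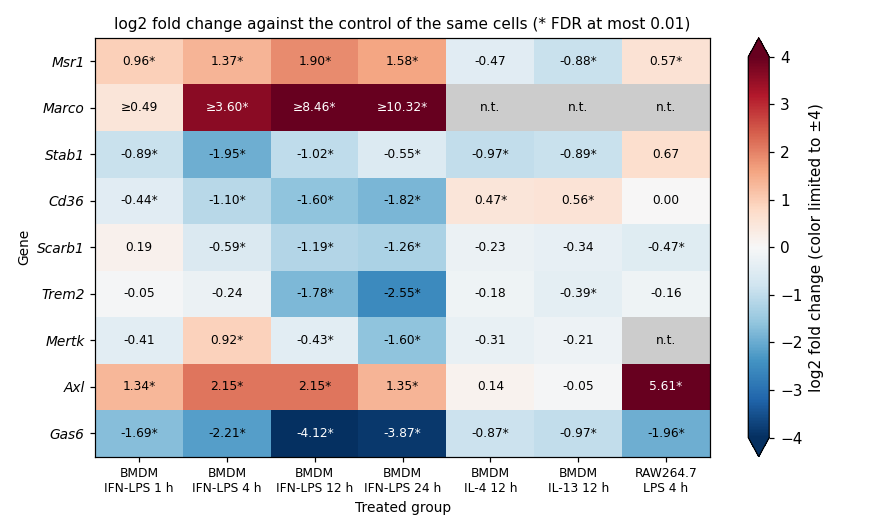
Heatmap of the log2 fold change of 9 members (rows) in each treated group against the control of the same cells (columns). Asterisks mark an FDR of at most 0.01 and n.t. marks genes not tested. The values of Marco, marked ≥, are the log2 of its observed mean over a control set at the floor of 3 counts. They leave out the counting error of the treated libraries, and the value at 1 h rests on 4 counts and was not called. All other values are fitted. Axl and Msr1 are higher and Gas6 and Cd36 lower at all 4 IFN-LPS time points, whereas with IL-4 and IL-13 Cd36 is higher.

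Gas6 and Stab1 were lower than control with IL-4 and IL-13, which polarise macrophages toward the alternative state, whereas neither TAM receptor passed the test. Gas6 was at 202, 181 and 192 CPM with IL-4 and 179, 169 and 189 CPM with IL-13. All 6 libraries lay below the 3 control libraries, and the log2 fold change was -0.87 ± 0.09 with IL-4 (edgeR, adjusted p = 4.55e-11) and -0.97 ± 0.09 with IL-13 (adjusted p = 8.34e-13). Stab1 was at 224, 232 and 170 CPM with IL-4 and 246, 204 and 220 CPM with IL-13, also below every control library, with changes of -0.97 ± 0.10 (adjusted p = 1.38e-11) and -0.89 ± 0.10 (adjusted p = 1.02e-10).

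Cd36 was the only member that rose with these cytokines. It was at 1580, 1505 and 1733 CPM with IL-4 and 1589, 1806 and 1743 CPM with IL-13, all above the control range. The log2 fold change was 0.47 ± 0.08 (adjusted p = 5.25e-06) and 0.56 ± 0.08 (adjusted p = 9.03e-08), which is 1.40-fold and 1.49-fold and under the study's cutoff of 0.7 for these treatments.

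Msr1 was at 57.2, 48.5 and 53.2 CPM with IL-4 and 32.9, 43.6 and 42.6 CPM with IL-13, below control in all libraries. It fell with IL-13 (-0.88 ± 0.14, adjusted p = 1.47e-06). With IL-4 its value was -0.47 ± 0.13 (adjusted p = 0.0112), just short of the threshold, and it passed with at least 10 counts required in every library and without replicate 1 or 3 of the IL-13 group (-0.47, -0.46 and -0.46). Trem2 was at 915, 937 and 1051 CPM with IL-4 (-0.18 ± 0.08, adjusted p = 0.135) and 911, 878 and 741 CPM with IL-13, where it fell (-0.39 ± 0.08, adjusted p = 0.000261). Axl had values of 0.14 ± 0.10 and -0.05 ± 0.10 (adjusted p = 0.421 and 0.791), Mertk of -0.31 ± 0.14 and -0.21 ± 0.14 (adjusted p = 0.173 and 0.350), and Scarb1 of -0.23 ± 0.11 and -0.34 ± 0.11 (adjusted p = 0.194 and 0.0306), none of which passed. Without replicate 1 of the IL-13 group, the change of Scarb1 with IL-13 passed (-0.52, adjusted p = 0.00022).

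Of 8 members tested, 1 rose and 2 fell with IL-4, where 4.38% and 3.25% of 9252 genes did, and 1 rose and 4 fell with IL-13, where 5.61% and 4.49% did. The 2 cytokines were also compared directly. None of the 8 members passed the test (edgeR), where 0.0865% of genes were higher and 0.0216% lower with IL-13. The DESeq2 and limma-voom fits also called 0 members. In the edgeR fit 2 members, Msr1 and Trem2, had an unadjusted p below 0.05, beside 335 of 9252 genes higher and 308 lower with IL-13. Msr1 had the widest difference, -0.42 ± 0.15 (IL-13 against IL-4, edgeR, adjusted p = 0.415), followed by Trem2 with -0.21 ± 0.08 (adjusted p = 0.540) and Axl with -0.20 ± 0.10 (adjusted p = 0.739). In all 3 genes the ranges of the groups did not overlap. How many of all genes had such ranges was not counted, so no difference between the cytokines is read from this. The remaining differences lay between -0.11 and 0.10. The control was cultured for 4 h and the cytokine groups for 12 h, so cytokine and culture time cannot be told apart in the comparisons with control.

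The 12 h IFN-LPS group was compared with the IL-4 and IL-13 groups of the same duration, in a fit of all 25 libraries. Msr1, Axl and Marco were higher with IFN-LPS and Cd36, Scarb1, Gas6 and Trem2 were lower, in both comparisons. This is 7 of 9 members in each comparison, beside 41.0% of 10612 genes that differed in either direction. Marco is counted among them although it passed the low-count filter only through IFN-LPS groups, where it was high. Cd36 differed by a log2 fold change of -2.04 ± 0.12 against IL-4 (edgeR, adjusted p = 8.93e-18) and -2.13 ± 0.12 against IL-13 (adjusted p = 2.22e-18). Msr1 differed by 2.40 ± 0.13 (adjusted p = 9.71e-25) and 2.81 ± 0.14 (adjusted p = 1.98e-27), Axl by 2.04 ± 0.10 and 2.23 ± 0.10, and Gas6 by -3.21 ± 0.15 and -3.12 ± 0.15. Trem2 differed by -1.56 ± 0.09 and -1.37 ± 0.09, and Scarb1 by -0.92 ± 0.14 and -0.82 ± 0.14. Stab1 and Mertk did not pass the test, with -0.01 ± 0.11 and -0.08 ± 0.15 against IL-4 (adjusted p = 0.948 and 0.677) and -0.10 ± 0.11 and -0.19 ± 0.15 against IL-13 (adjusted p = 0.460 and 0.305). With scaling by library size alone, Stab1 passed in both comparisons (-0.36 and -0.48) and Mertk against IL-13 (-0.56).

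RAW264.7 cells had a narrower set of these receptors. Mertk and Marco had 0 counts in all 4 libraries and Cd163 likewise, and Axl had 0 and 1 counts in the control libraries. Mertk was at least 152-fold lower than in control BMDMs, with the RAW264.7 control set at a floor of 3 counts over its 2 libraries. Gas6 was at 6.26 and 4.36 CPM and Stab1 at 11.1 and 13.4 CPM in the RAW264.7 control, 65.3-fold and 33.0-fold below the BMDM control mean. In contrast, Cd36 was at 1809 and 1628 CPM, above every control BMDM library, and Trem2 at 239 and 267 CPM, below all of them. Against control BMDMs, 1 of 9 members was higher (31.9% of 10612 genes) and 6 were lower (33.7%). Among the 9, Marco had 0 counts in both groups and passed the low-count filter only through IFN-LPS groups, so it could not be called. Mertk and Gas6 passed that filter only through BMDM groups, where they were high. The log2 fold change was 0.58 ± 0.12 for Cd36 (edgeR, adjusted p = 6.11e-05), -2.11 ± 0.10 for Trem2 (adjusted p = 2.40e-29), -5.04 ± 0.17 for Stab1, -6.01 ± 0.19 for Gas6 and -0.56 ± 0.13 for Scarb1 (adjusted p = 0.000160, lost with scaling by library size alone at -0.31). Msr1, at 90.4 and 98.8 CPM, had a value of 0.38 ± 0.14 (adjusted p = 0.0158) that did not pass.

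LPS for 4 h raised Axl in RAW264.7 from 0 and 1 counts to 28 and 29 counts, 11.2 and 10.1 CPM, still below every BMDM library. The ratio of summed counts was 59.6, with an exact 95% counting interval of 10.3 to 2394, and the change passed the test (adjusted p = 2.76e-15). Msr1 rose from 90.4 and 98.8 to 136 and 138 CPM (0.57 ± 0.10, adjusted p = 3.75e-07). Scarb1 went from 98.5 and 98.8 to 69.4 and 68.8 CPM (-0.47 ± 0.12, adjusted p = 0.000347), and Gas6 from 18 and 12 to 5 and 2 counts (-1.96 ± 0.54, adjusted p = 0.00139). DESeq2 called neither of these falls (adjusted p = 0.0386 and 0.124). Scarb1 also lost its call without either LPS library (-0.47 and -0.46), and Gas6 without replicate 1 or 2 of the control or replicate 2 of the LPS group (-1.66, -2.19 and -1.35). Cd36, at 1809 and 1628 CPM without and 1689 and 1663 CPM with LPS, was 0.00 ± 0.06 (adjusted p = 0.973). Trem2 was -0.16 ± 0.08 (adjusted p = 0.122) and Stab1 0.67 ± 0.24 (adjusted p = 0.0191), and neither passed, although Stab1 did with counts of both strands together (0.80) and Trem2 with scaling by library size alone (-0.34). Of 7 members tested, 2 rose and 2 fell, beside 15.1% and 12.8% of 9406 genes. Of these, Axl passed the low-count filter only through the LPS group and Gas6 only through the control group.

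The 4 h responses of the 2 cell types were compared in 1 fit, although RAW264.7 received LPS alone and BMDMs LPS with IFN-γ, so that cell type and IFN-γ cannot be told apart. Cd36 and Stab1 fell in BMDMs and were not called in RAW264.7, and the difference of log2 fold changes (RAW264.7 minus BMDM) was 1.01 ± 0.18 for Cd36 (edgeR, adjusted p = 1.44e-05) and 2.52 ± 0.28 for Stab1 (adjusted p = 1.57e-11). Msr1 responded less in RAW264.7, by -0.89 ± 0.20 (adjusted p = 0.000189), but not with scaling by library size alone (-0.44, adjusted p = 0.0553). Axl gave 3.25 ± 0.73 (adjusted p = 0.000326), a value that rests on 1 count in the RAW264.7 control and was lost with DESeq2 (3.71, adjusted p = 0.0376) and without replicate 1 of that group (2.42, adjusted p = 0.0409). Scarb1, Gas6 and Trem2 gave 0.02 ± 0.20, 0.17 ± 0.86 and -0.01 ± 0.14 (adjusted p = 0.987, 0.946 and 0.998). Of 9 members, 3 differed upward and 1 downward, beside 9.75% and 15.3% of 10612 genes. The difference could not be estimated for Marco and Mertk, which had 0 counts in RAW264.7.

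Across the 9 groups each member had its own order of levels. Msr1 was highest at 12 h of IFN-LPS (280 CPM) and lowest with IL-13 (39.7 CPM), and Marco highest at 24 h. Cd36 was highest in the RAW264.7 control (1719 CPM), with IL-13 (1713 CPM), RAW264.7 LPS (1676 CPM) and IL-4 (1606 CPM) following in ranges that overlapped from one to the next, and lowest at 24 h of IFN-LPS (326 CPM). Stab1 and Gas6 were highest in the control BMDMs, apart from all other groups, and Trem2 was also highest there (1090 CPM) but overlapped the 1 h group. Scarb1 was highest at 1 h (169 CPM) and lowest at 24 h, whose range overlapped that of 12 h. Mertk was highest at 4 h and Axl at 4 and 12 h, with overlap between these 2 groups. Per kb of principal transcript, Trem2 led in control BMDMs with a level of 1002 CPM per kb, followed by Cd36 (338), Gas6 (136), Scarb1 (57.8), Msr1 (51.0), Stab1 (50.7), Axl (34.3) and Mertk (18.9). At 24 h of IFN-LPS the leading levels were Marco (358 CPM per kb), Trem2 (172) and Msr1 (153), with Mertk (6.25) the lowest of those with counts. In RAW264.7 control they were Cd36 (506), Trem2 (233) and Msr1 (66.5). These per-kb levels assume the principal transcript, such as 1.088 kb for Trem2, 1.424 kb for Msr1, 2.521 kb for Scarb1 and 3.399 kb for Cd36. All annotated exons of these genes together span 4946, 6344, 8500 and 3590 bases. The counts are per gene and do not show which transcript was made.

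Genes with the pattern most like each member were found as the highest Pearson r of log2 CPM over the 21 BMDM libraries, among 7758 genes. These libraries share their treatments, and the values are given as a description. Marco was closest to Lcn2 (r = 0.987), Ly6i (0.986) and Prdx1 (0.983), of which Lcn2 encodes the siderophore-binding lipocalin-2. Axl was closest to Slc2a6 (0.988), Samhd1 (0.986) and Cd40 (0.985), and Msr1 to Cybb (0.974), the gp91phox subunit of the NADPH oxidase, Nab1 (0.974) and Cd82 (0.973). Gas6 was closest to Pink1 (0.988), Serpinb6a (0.978) and Rnf150 (0.973), Trem2 to Cadm1 (0.984), Pmp22 (0.973) and Lgmn (0.971), the lysosomal protease legumain, and Cd36 to Fam198b (0.988), Pcyt1a (0.986) and Rnase4 (0.985). Mertk was closest to Piezo1 (0.964), Syne2 (0.950) and Hipk3 (0.927), Scarb1 to Nrp1 (0.937), Itga6 (0.930) and Gng2 (0.929), and Stab1, with lower values, to 2310022A10Rik (0.901), Abl1 (0.890) and Dock8 (0.887).

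Other genes of uptake and efferocytosis were taken from 6 lists with 76 genes, covering other scavenger receptors, other efferocytosis receptors, bridging molecules, engulfment signalling, digestion with lipid handling, and sheddases with do-not-eat-me signals. At 4 h of IFN-LPS, 20 of 64 tested genes rose and 27 fell, beside 26.0% and 25.6% of all genes. At 24 h 20 rose and 29 fell, beside 23.9% and 21.3% of all genes. The largest rises at 4 h were Ptx3, the long pentraxin (83.7 ± 6.6 against 1.07 ± 1.07 CPM in control, SD, n = 3), Olr1, the oxidised LDL receptor LOX-1 (15.1 ± 3.4 against 0.179 ± 0.311 CPM), and Cd14, the LPS co-receptor (4420 ± 333 against 288 ± 26 CPM). Among the deepest falls were Cd300lb (1.40 ± 0.54 against 276 ± 27 CPM) and Pparg (2.75 ± 0.33 against 35.1 ± 4.7 CPM), a nuclear receptor known to drive Cd36. At 24 h, Ptx3 (20.1 ± 3.8 CPM), the oxysterol receptor Nr1h3 (546 ± 41 against 75.5 ± 1.5 CPM) and Cd14 (1645 ± 213 CPM) were the largest rises, and Cd300lb (11.4 ± 3.5 CPM), Pparg (2.02 ± 0.08 CPM) and the mannose receptor Mrc1 (5.03 ± 0.89 against 84.7 ± 6.9 CPM) the deepest falls. All of these had an FDR of at most 0.01.

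By list, and beside 26.0% of all genes that rose and 25.6% that fell at 4 h (23.9% and 21.3% at 24 h), 3 of 9 other scavenger receptors rose and 5 fell at 4 h (median log2 fold change -0.78), and 3 rose and 6 fell at 24 h (median -1.28). Of the other efferocytosis receptors, 2 of 8 rose and 4 fell at 4 h (median -0.50), and 2 rose and 5 fell at 24 h (median -1.80). Bridging molecules had 6 of 10 genes up and 2 down at 4 h (median 0.62) and 4 up and 4 down at 24 h (median 0.09), while Gas6, itself a bridging molecule among the members, fell at both times. In the digestion and lipid handling list 4 of 17 genes rose and 9 fell at 4 h (median -0.83), and 5 rose and 7 fell at 24 h (median -0.21). Engulfment signalling, which holds the adaptors and GTPase regulators behind the receptors, had 3 of 13 genes up and 4 down at 4 h (median 0.00), about the share over all genes, and 4 up and 5 down at 24 h (median -0.23). Of the sheddases and do-not-eat-me signals, 2 of 7 rose and 3 fell at 4 h (median 0.24), and 2 rose and 2 fell at 24 h (median -0.01).

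With IL-4, 9 of 62 genes of the lists rose and 6 fell, beside 4.38% and 3.25% of all genes. With IL-13 9 rose and 8 fell, beside 5.61% and 4.49% of all genes. Mrc1 rose to 467 ± 8 CPM with IL-4 and 597 ± 50 CPM with IL-13, from 84.7 ± 6.9 CPM in control (SD, n = 3). The integrin Itgb3 rose to 42.4 ± 6.3 and 56.3 ± 5.3 CPM from 18.2 ± 0.5 CPM, and Pparg to 69.0 ± 6.7 and 74.8 ± 7.9 CPM from 35.1 ± 4.7 CPM. Pparg and Cd36 thus both fell with IFN-LPS and both rose with these cytokines, but a part of Pparg in the Cd36 changes was not tested. Cd14 fell to 78.2 ± 4.3 and 77.0 ± 9.1 CPM, the transcription factor Maf to 72.4 ± 10.3 and 67.6 ± 12.1 CPM from 151 ± 8 CPM, and the cholesterol exporter Abca1 to 153 ± 36 and 169 ± 18 CPM from 326 ± 32 CPM. In RAW264.7, 12 of 56 genes rose with LPS and 9 fell, beside 15.1% and 12.8% of all genes. The largest rises were Thbs1, a bridging molecule that was at 0 in both control libraries and at 5.05 ± 0.76 CPM with LPS (SD, n = 2), Olr1 (0.348 ± 0.492 to 10.0 ± 3.5 CPM) and Abca1 (0.530 ± 0.235 to 12.8 ± 3.5 CPM). The deepest falls were Sirpa, the receptor for the do-not-eat-me signal Cd47 (262 ± 13 to 107 ± 16 CPM), Cd24a (13.2 ± 1.9 to 6.62 ± 2.49 CPM) and Abca7 (29.0 ± 0.1 to 18.1 ± 6.4 CPM).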

How the data were processed

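Directional, rRNA-depleted RNA-seq libraries of 21 BMDM and 4 RAW264.7 samples were used. The submitters' processing notes name CASAVA 1.8.2, Trimmomatic 0.33, STAR 2.5.1 and mm10, and the annotation release is not given in the sources used here. The authors deposited 1 file of whole-number read counts per sample, without normalization, on 24411 symbols, for both strands together and for each. Counts on the sense strand were used without Rn45s (20.1 to 39.8% of counts), whose level varied between libraries. Reads assigned to no gene feature, 62.7 to 69.1% of those assigned, ambiguous or without feature, entered neither library sizes nor tests.

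Groups were taken from the sample labels. Genes passing filterByExpr by group were fitted with edgeR 4.0.16 (R 4.3.3, TMM, robust quasi-likelihood, 1 mean per group), over the time course (15 libraries), IL-4, IL-13 and control (9), RAW264.7 (4), or all 25 libraries for comparisons across these. P-values were adjusted by Benjamini-Hochberg over all genes of a contrast, and a gene counted as changed at an FDR of at most 0.01. SE was obtained by dividing the size of a log2 fold change by the root of its F statistic. Replicates differed by 1.33 to 4.93 times the sampling variance (chi-square per degree of freedom, 23 pairs), so none was a copy of another. That check cannot show whether they came from separate mice or cultures. Intervals and floors cover counting error only. Alternatives used DESeq2 1.42.0 and limma 3.58.1, other filters, strands, scalings and sample sets, and scaling by library size alone was added after seeing the data. Scripts were tested on simulated counts. Positions and transcript lengths are from GENCODE M21 and promoters from RefSeq. Named genes are all members, from the pathway lists up to 3 with the largest rise and 3 with the largest fall past the FDR in each of 5 main comparisons (at least 5 CPM in the higher group), and per member the 3 genes with the highest r (at least 10 CPM). A result that this rule names is not reported here. Members, lists and tests were chosen with earlier results of these data known.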

Additional observations from a re-analysis of the deposited data

Results flagged for a closer look

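Counts on the strand opposite to Stab1, which were left out of the main counts, were higher in 3 groups than in their controls. Antisense Stab1 was at 40.7 ± 2.6 CPM at 12 h and 37.3 ± 1.5 CPM at 24 h of IFN-LPS, against 19.4 ± 2.3 CPM in control BMDMs (SD, n = 3), and no library at 12 or 24 h overlapped the control range of 17.4 to 22.0 CPM. At 1 h it was at 15.9 ± 1.2 CPM and at 4 h at 6.44 ± 2.88 CPM, below control, while with IL-4 and IL-13 it was at 14.5 ± 1.8 and 11.4 ± 1.9 CPM. In RAW264.7 it was at 5.89 ± 1.00 CPM with LPS and 3.40 ± 1.36 CPM without (SD, n = 2). These values were not tested. Nt5dc2, which overlaps the 3′ end of Stab1 on that strand by 112 bases, was at 39.4 ± 8.2 CPM at 12 h and 31.8 ± 3.6 CPM at 24 h, against 53.7 ± 3.2 CPM in control, and its part in the antisense counts was not tested.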

How the results depend on the processing

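Of 130 tested results of single members, 88 were called, and 76 of these kept their call and direction in every setting run, while 12 lost the call in at least 1 and none reversed. A further 13 results gained a call in at least 1 setting, among them Mertk at 1 h (-0.48 with at least 10 counts in every library, -0.41 with the replicate block, -0.60 with library size alone, -0.40 without replicate 1 of the 4 h and -0.40 without replicate 3 of the 12 h group) and Trem2 at 4 h (-0.40 with that filter, -0.24 with limma-voom, -0.77 with library size alone, -0.28 and -0.23 without those libraries). Msr1 from 1 to 4 h passed in 7 settings (0.39 to 0.58), and Msr1 in RAW264.7 against BMDM controls also in 7 (0.36 to 0.63). With at least 10 counts in every library, 4 instead of 7 members differed between 12 h of IFN-LPS and IL-4 and likewise for IL-13, since Marco, Axl, Gas6 and Mertk, each with a library under 10 counts, then left the fit of all libraries. In RAW264.7, 2 members instead of 4 changed with DESeq2 and 2 with that filter, and 2 to 3 with 1 library left out. Leaving out 1 library moved the number of called members from 5 to between 4 and 6 at 1 h, from 8 to between 8 and 9 at 4 h, from 9 to between 8 and 9 at 12 h and left it at 9 at 24 h. It gave 6 to 8 for 4 h against 1 h, 6 to 8 for 12 h against 4 h and 4 to 5 for 24 h against 12 h, 3 to 4 for IL-4, 5 to 6 for IL-13, 0 for IL-13 against IL-4, 7 for 12 h against each cytokine, 7 to 8 for RAW264.7 against BMDM controls and 3 to 4 for the difference of the 4 h responses. Where leaving out a library left 1 RAW264.7 library in a group, it was assumed to vary like the others. With scaling by library size alone, the median of all genes shifted to -0.22, -0.61, -0.34 and -0.20 at 1, 4, 12 and 24 h, and genes that rose and fell numbered 1018 and 1844 at 1 h, 1539 and 3408 at 12 h and 1616 and 2878 at 24 h. The uncalled difference of Trem2 between the 4 h responses then became 0.43 (adjusted p = 0.00972), and the median of all genes in that contrast 0.47. Replicate numbers did not pair the libraries (mean correlation of same-numbered deviations 0.0201 in the time course, 0.00728 in the cytokine fit, 0.0107 in RAW264.7), and with the replicate block 6 members instead of 5 were called at 1 h. At this depth, members with under about 10 counts per library (Marco to 4 h, and in RAW264.7 Axl in the control and Gas6 with LPS) carry wide errors.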
